A study of Mus musculus with 53 samples.

Results

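The replication-dependent histone genes code for the H1, H2A, H2B, H3 and H4 proteins that package newly made DNA. All entries of both RNA tables whose symbol begins with Hist1h, Hist2h, Hist3h or Hist4h were taken, with no condition on level. This gave 67 of the 43432 genes listed: 6 H1, 20 H2A, 16 H2B, 12 H3 and 13 H4 genes, among them the pseudogene Hist3h2bb-ps and the gene Hist1h2al, which RefSeq lists under the pseudogene name H2af-ps2. A further 3 genes of these families, Hist1h2bh, Hist1h2bm and Hist2h2bb, were not analysed here.

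Core histones H2A, H2B, H3 and H4 form the nucleosome, and linker histones H1 bind the DNA where it enters and leaves. Most of the genes lack introns. They are transcribed in S phase with the help of the coactivator NPAT. Their mRNAs end in a stem-loop bound by SLBP in place of a poly(A) tail. Some of the genes can also give polyadenylated RNA. Replacement variants such as H2A.Z and H3.3 come from separate genes that are expressed throughout the cell cycle.

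The cells were mouse embryonic fibroblasts (MEF), either knocked out for Anp32e (KO), a histone chaperone gene whose product removes H2A.Z from chromatin, or wild type (WT). The first table, in FPKM, held 3 KO DAC, 3 WT DAC, 2 KO DMSO and 2 WT DMSO libraries, where DAC is decitabine, a cytidine analogue that traps DNA methyltransferases, and DMSO its solvent. The second table, in RPKM, held 3 libraries each of KO and WT cells given an siRNA against H2A.Z (H2AZ siRNA) and of KO and WT cells given a control siRNA labelled NT. The labels give no dose, time, embryo age or strain. All groups share the MEF origin and differ in genotype and agent only as the labels state, and the KO H2AZ siRNA libraries are numbered without the word for biological replicates used elsewhere, so their spread may be technical.

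Library totals recovered from the values ran from 27503472 to 36910532 reads in the FPKM table and from 31928320 to 47172427 in the RPKM table. Anp32e averaged 5.09 FPKM in KO DMSO cells, against 14.5 FPKM in WT DMSO cells, and was lower in all KO libraries of both tables. Where in the gene the deletion lies is not given in the sources used here. H2afz, which codes for H2A.Z, averaged 27.9 RPKM in KO H2AZ siRNA cells, against 194 RPKM in KO NT siRNA cells, and 17.2 RPKM in WT H2AZ siRNA cells, against 202 RPKM in WT NT siRNA cells. The 10 fibroblast markers were at 1 or more in every library, and their sums differed between groups. They summed to 1839 to 2023 FPKM in KO DAC and 2221 to 2358 FPKM in WT DAC. The sums were 1915 to 1958 FPKM in KO DMSO and 3349 to 3472 FPKM in WT DMSO. In KO against WT in DMSO 7 of 10 were called lower, against 22.9% of all genes tested, and 1 higher, against 19.6%. With DAC in WT 8 of 10 were lower, against 13.8%, and 1 higher, against 14.5%. With DAC in KO 5 were lower and 4 higher, against 21.6% and 23.7%. In KO against WT in DAC 3 were lower and 1 higher, against 11.6% and 11.1%. In the RPKM table they summed to 1142 to 1201 RPKM in KO H2AZ siRNA and 1108 to 1147 RPKM in WT H2AZ siRNA. The sums were 1268 to 1319 RPKM in KO NT siRNA and 1147 to 1172 RPKM in WT NT siRNA. In KO against WT with NT siRNA 6 of 10 were called higher, against 23.7% of all genes tested, and 1 lower, against 40.4%. The 10 mesothelial markers summed to 111 to 130 FPKM in KO DAC and 43.2 to 57.9 FPKM in WT DAC, and to 934 to 962 FPKM in KO DMSO and 10.1 to 12.3 FPKM in WT DMSO. They summed to 151 to 161 RPKM in KO H2AZ siRNA and 23.1 to 23.6 RPKM in WT H2AZ siRNA, and to 169 to 191 RPKM in KO NT siRNA and 23.1 to 24.6 RPKM in WT NT siRNA. In every library of the group 8 or 9 of the 10 were at 1 or more in KO cells and 3 or 5 in WT cells. Of the defining markers, Wt1 was listed at 0 in WT cells with either siRNA. Upk3b averaged 384 FPKM in KO DMSO and 0.082 FPKM in WT DMSO. Msln was also present in WT cells, at 5.91 FPKM in WT DMSO. It averaged 23.3 FPKM in KO DAC and 33.2 FPKM in WT DAC. In KO against WT in DMSO 8 of the 10 were called higher, against 19.6% of all genes tested, and 0 lower, against 22.9%. In KO against WT in DAC 7 were higher and 1 lower, against 11.1% and 11.6%. DAC in WT raised 6, against 14.5%, and lowered 0, against 13.8%. Xist, which is transcribed from the inactive X chromosome of female cells, averaged 0.75 FPKM in KO DMSO and 175 FPKM in WT DMSO. The Y-linked Ddx3y averaged 3.08 FPKM in KO DMSO and 0.00627 FPKM in WT DMSO. In KO DAC both were present, Xist at 33.9 FPKM (28.5 to 44.4) and Ddx3y at 5.36 FPKM. Xist averaged 162 FPKM in WT DAC. DAC against DMSO in KO thus also differs in these genes, with log2 fold changes of 4.29 for Xist and 0.641 for Ddx3y. Xist averaged 4.97 RPKM in WT H2AZ siRNA and 0.000836 RPKM in KO H2AZ siRNA. Ddx3y was listed at 0 in WT cells with either siRNA. Genotype therefore cannot be told apart from sex and from the mesothelial signature in any KO against WT value, and fewer cells in S phase cannot be told apart from less histone RNA per cell in these bulk samples.

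Most of the genes lie in clusters. Positions could be matched for 66 of the 67, given here on GRCm38.p6 from RefSeq: 53 on chromosome 13, 9 on chromosome 3 at chr3:96219885-96269155, 3 on chromosome 11 at chr11:58948911-58955192 and Hist4h4 alone on chromosome 6. On chromosome 13, 28 genes lie in chr13:23531044-23764412 and 17 in chr13:21715711-21837530, while Hist1h2al stands alone at chr13:51200084-51203066. The lengths recovered for the 63 genes above 0 ran from 312 to 4374 bases with a median of 476, and 54 were between 300 and 1000 bases.

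The promoters of the classes carry different short motifs. RefSeq's promoter table held 58 of the 67 genes and 27025 genes in all, and the 250 bases before each start were searched on both strands. The CCAAT box (CCAAT) was found in 47 of 58 histone promoters (81.0%), among them all 6 H1, all 17 H2A and all 13 H2B promoters but 3 of 12 H4 promoters, against 34.5% of all promoters. The TATA box (TATAAA) was found in 29 (50%), against 13.0% of all promoters. The core of the H4 subtype element (GGTCCG), the site of the factor HINFP, was found in 9 of 12 H4 promoters, in 1 of 10 H3 promoters and in no H1, H2A or H2B promoter, against 6.82% of all promoters. The octamer (ATTTGCAT), bound by OCT1, was found in 7 of 17 H2A and 4 of 13 H2B promoters, against 1.61%. The H1 box (AAACACA) was found in 5 of 6 H1, 2 of 17 H2A and 1 of 13 H2B promoters and in no H3 or H4 promoter, against 6.22%. A missing match says only that these letters are not in the window. H2A and H2B genes often lie head to head and share the DNA between them.

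The 120 bases before the start of 6 genes are printed to show these layouts next to the genes whose values follow, with every match to the 5 motifs in capitals and no overlap between matches. They are Hist1h1a (chr13:23763548-23763667, plus strand), Hist1h2ab (chr13:23750968-23751087, plus strand), Hist1h2bf (chr13:23574208-23574327, minus strand), Hist1h3h (chr13:21717508-21717627, plus strand), Hist1h4d (chr13:23581448-23581567, plus strand) and Hist4h4 (chr6:136804432-136804551, minus strand), each written 5′ to 3′ along the gene's strand.
Hist1h1a: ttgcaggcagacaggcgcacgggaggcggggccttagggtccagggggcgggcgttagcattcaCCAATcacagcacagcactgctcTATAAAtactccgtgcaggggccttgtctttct
Hist1h2ab: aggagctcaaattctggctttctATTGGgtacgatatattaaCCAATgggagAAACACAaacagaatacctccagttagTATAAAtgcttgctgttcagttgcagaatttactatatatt
Hist1h2bf: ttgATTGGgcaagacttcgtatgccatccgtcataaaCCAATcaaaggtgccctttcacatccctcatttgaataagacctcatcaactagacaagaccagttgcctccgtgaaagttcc
Hist1h3h: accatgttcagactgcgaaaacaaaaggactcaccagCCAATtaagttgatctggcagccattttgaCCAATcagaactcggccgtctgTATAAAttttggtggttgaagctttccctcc
Hist1h4d: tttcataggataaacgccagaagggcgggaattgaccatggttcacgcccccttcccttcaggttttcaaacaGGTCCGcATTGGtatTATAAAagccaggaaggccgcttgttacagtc
Hist4h4: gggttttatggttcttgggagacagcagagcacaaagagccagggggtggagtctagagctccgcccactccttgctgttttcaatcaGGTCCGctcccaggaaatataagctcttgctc
Hist1h1a and Hist1h3h have a CCAAT box followed by a TATA box, Hist1h4d has the H4 element just ahead of a reversed CCAAT box and a TATA box, and Hist4h4 has the H4 element alone. Hist1h1a is the only H1 promoter without an H1 box, and the H1 box printed lies in the H2A gene Hist1h2ab.

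Histone genes were measured at high levels in both tables. Their reads made up 0.667 to 0.848% of the reads of KO DAC libraries and 0.574 to 0.736% of those of WT DAC libraries, with 0.582 to 0.61% for KO DMSO and 0.681 to 0.744% for WT DMSO. In the RPKM table the share was 2.44 to 2.77% in KO H2AZ siRNA, 1.67 to 1.76% in WT H2AZ siRNA, 2.57 to 2.92% in KO NT siRNA and 1.77 to 2.1% in WT NT siRNA. The 2 tables were normalised separately and no level was tested across them. Genes were tested if 2 FPKM or 3 RPKM libraries, or more, stood at 1 or above. This left 59 histone genes of 16434 genes in the FPKM table and 61 of 12668 in the RPKM table. Hist2h2aa1, Hist2h2aa2, Hist2h3b and Hist2h3c1 were listed at 0 in every library of both tables. Also too low for testing were Hist1h2aa, Hist1h4b, Hist2h2be and Hist3h2a in the FPKM table and Hist1h1t and Hist1h2aa in the RPKM table.

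Per length, H3 genes took the largest part of the summed histone FPKM (36.3% for KO DAC, 32.0% for WT DAC, 34.4% for KO DMSO and 31.6% for WT DMSO) and H4 genes the largest part of the summed RPKM (28.5% in KO H2AZ siRNA, 28.5% in WT H2AZ siRNA, 29.1% in KO NT siRNA and 27.6% in WT NT siRNA). H1 genes took 4.88 to 5.73% of the sum over the 8 groups. By mean level per length, the highest gene of each class was Hist1h1d, Hist1h2ao, Hist1h2bk, Hist1h3h and Hist1h4d in the FPKM table, and Hist1h1e, Hist1h2al, Hist1h2bn, Hist1h3h and Hist1h4d in the RPKM table. Hist1h2ao and Hist1h2ap (H2A), Hist1h2bq and Hist1h2br (H2B), and Hist1h4m and Hist1h4n (H4) had read numbers within 2% of each other in every RPKM library, Hist1h2ao and Hist1h2ap in every FPKM library too. How reads that match several copies were counted is not given in the sources used here, so values of single near-identical copies are uncertain and class sums are less so.

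**Figure D1:**
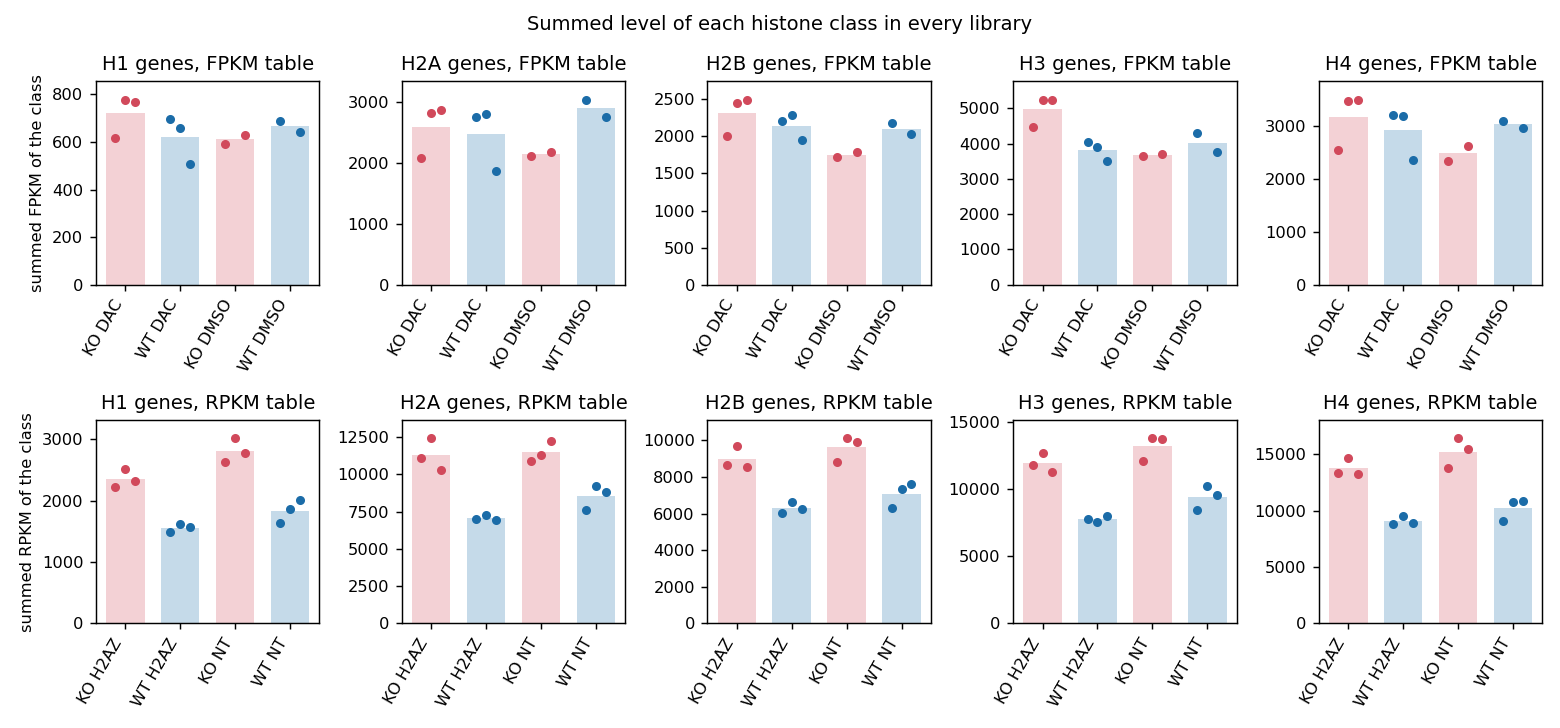
Summed level of the H1, H2A, H2B, H3 and H4 genes (FPKM, upper row; RPKM, lower row) in each library (points) with group means (bars). In the lower row all KO libraries lie above all WT libraries given the same siRNA in every class, while in the upper row KO and WT change order between DAC and DMSO.

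Histone genes as a family were higher in KO than in WT cells with NT siRNA. The summed level was 48168, 54584 and 54195 RPKM in the KO NT siRNA libraries and 33074, 39474 and 38829.7 RPKM in the WT NT siRNA libraries. No KO library overlapped with a WT library, and the ratio of means was 1.41. By class the ratio was 1.52 for H1, 1.35 for H2A, 1.36 for H2B, 1.4 for H3 and 1.48 for H4.

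Of the 61 genes tested with limma on log2(RPKM + 1), 58 (95.1%) were called higher in KO NT siRNA than in WT NT siRNA cells at a Benjamini-Hochberg adjusted p under 0.05, against 23.7% of all genes tested, and 1 (1.64%) was called lower, against 40.4%. The higher calls took in all 5 H1, 15 of 17 H2A, 15 of 16 H2B, all 10 H3 and all 13 H4 genes. Hist2h2ab and Hist3h2a passed no threshold, and the lower call was Hist2h2be, an H2B gene close to the filter, with 77 to 136 reads per NT siRNA library and 0.904, 0.749 and 0.76 RPKM in KO NT siRNA and 1.17, 1.14 and 1.36 RPKM in WT NT siRNA. The median log2 fold change was 0.46 over the histone genes and -0.10 over all genes. Without overlap between libraries 59 of 61 were higher, against 25.5% of all genes, and 1 of 61 was lower, against 41.3%. Under median centring, which lifts this all-gene median to 0.03, 59 were higher and none was lower. The chromosome 13 clusters of 17, 5 and 28 genes gave 17 of 17, 5 of 5 and 27 of 27 tested genes higher.

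Hist1h1a, a linker histone gene at the edge of the larger cluster on chromosome 13 (chr13:23763668-23764412), was among the largest changes. It measured 619, 709.9 and 647 RPKM in KO NT siRNA and 328, 389 and 401 RPKM in WT NT siRNA, with no overlap. Its log2 fold change was 0.82 ± 0.08 (SE; adjusted p = 5.27e-06, limma with Benjamini-Hochberg adjustment). Hist4h4, the H4 gene alone on chromosome 6 (chr6:136803993-136804431), measured 40.0, 50.7 and 47.4 RPKM in KO NT siRNA and 19.2, 22.5 and 24.3 RPKM in WT NT siRNA. The KO libraries were all higher, at a log2 fold change of 1.03 ± 0.09 (SE; adjusted p = 3.25e-06, limma with Benjamini-Hochberg adjustment). The length recovered for Hist4h4 was 2879 bases, longer than the RefSeq interval given here. The lengths of Hist2h4 (1630 bases), Hist2h3c2 (1020 bases), Hist1h1c (1560 bases) and Hist3h2a (2146 bases), among others, also exceeded their intervals. Where in these lengths the reads lie was not tested, so they need not all come from the short histone mRNA.

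Hist1h2al, the most abundant H2A gene of this table per length, measured 1410.2, 1590.0 and 1529 RPKM in KO NT siRNA and 805, 926 and 952 RPKM in WT NT siRNA. Its log2 fold change was 0.76 ± 0.08 (SE; adjusted p = 1.24e-05, limma with Benjamini-Hochberg adjustment), again with no overlap. The pseudogene Hist3h2bb-ps was low, at 8.19, 10.1 and 7.72 RPKM in KO NT siRNA and 3.3, 4.06 and 3.21 RPKM in WT NT siRNA, with a log2 fold change of 1.09 ± 0.11 (SE; adjusted p = 5.71e-06, limma with Benjamini-Hochberg adjustment). The low values of this entry leave its fold change less precise than those of the abundant genes.

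The most abundant genes of the other classes moved less. Hist1h3h (H3) measured 1793, 2041 and 2083 RPKM in KO NT siRNA and 1270.3, 1547 and 1429 RPKM in WT NT siRNA, a log2 fold change of 0.48 ± 0.08 (SE; adjusted p = 2.52e-04, limma with Benjamini-Hochberg adjustment). Hist1h4d (H4) measured 1891, 2202 and 1969 RPKM in KO NT siRNA and 1323, 1532 and 1591 RPKM in WT NT siRNA, a log2 fold change of 0.45 ± 0.08 (SE; adjusted p = 4.16e-04, limma with Benjamini-Hochberg adjustment). Both stood clear of their WT values in all 3 KO libraries. Hist1h2bn (H2B) measured 1485, 1698 and 1655 RPKM in KO NT siRNA and 974, 1145 and 1206 RPKM in WT NT siRNA, and Hist1h1e (H1) 690.3, 765 and 724 RPKM in KO NT siRNA and 459.8, 516 and 561 RPKM in WT NT siRNA. For these 2 genes too the lowest KO library lay above the highest WT library. The H3 genes were the most alike, with log2 fold changes between 0.41 and 0.56, against -0.30 to 1.54 for the H2B genes. Both ends of the H2B range are low entries, Hist2h2be and Hist3h2ba, the latter with 17 to 166 reads per NT siRNA library. The width of the H2B range thus rests on low genes.

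**Figure D2:**
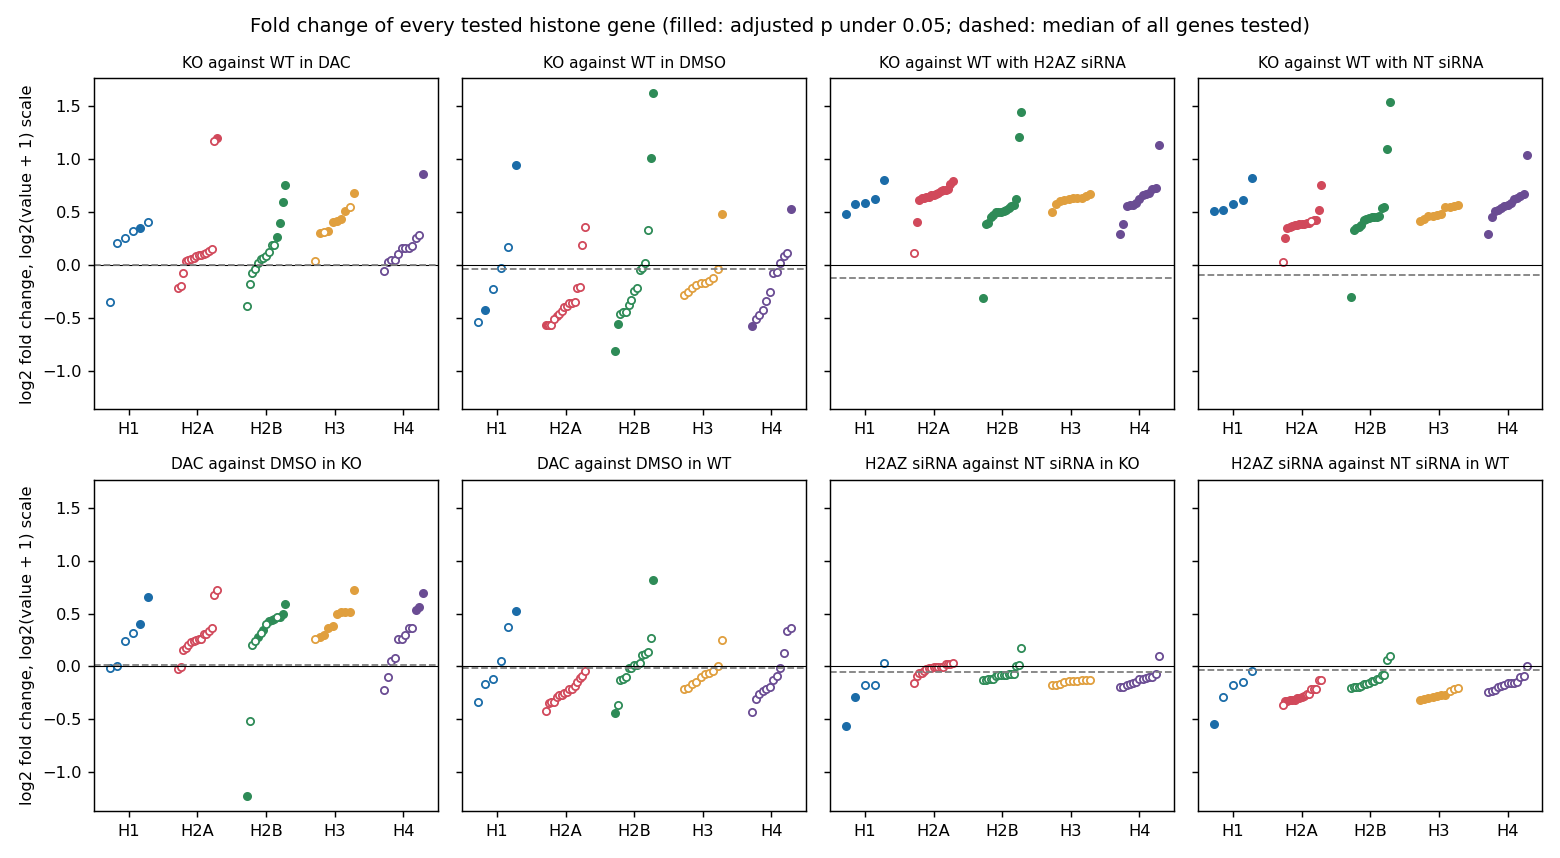
Log2 fold change of every tested histone gene on the log2(value + 1) scale in 8 comparisons, by class (filled points have an adjusted p under 0.05, the dashed line is the median of all genes tested). With either siRNA nearly all histone genes lie above the line in KO against WT, and in KO against WT under DAC the H3 genes have the highest class median.

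Histone genes were also higher in KO than in WT cells after H2AZ siRNA. The summed level was 47128, 51990.3 and 45758 RPKM in KO H2AZ siRNA and 31089, 32689.8 and 31654 RPKM in WT H2AZ siRNA, a ratio of 1.52 with no overlap, and H2A genes had the largest class ratio at 1.59. Of 61 genes 59 (96.7%) were called higher, against 20.2% of all genes tested, and 1 (1.64%) lower, again Hist2h2be, against 42.7%. The median log2 fold change was 0.62, against -0.12 over all genes. Without overlap 59 of 61 were higher, against 23.0% of all genes, and 1 of 61 was lower, against 47.0%. Hist4h4 measured 47.7, 52.9 and 46.8 RPKM in KO H2AZ siRNA and 21.7 to 22.03 RPKM in the 3 WT H2AZ siRNA libraries, a log2 fold change of 1.13 ± 0.09 (SE; adjusted p = 1.72e-06, limma with Benjamini-Hochberg adjustment). Hist1h1a measured 418, 473 and 447 RPKM in KO H2AZ siRNA and 246, 266 and 254 RPKM in WT H2AZ siRNA, a log2 fold change of 0.80 ± 0.08 (SE; adjusted p = 6.83e-06, limma with Benjamini-Hochberg adjustment). Neither gene overlapped between the genotypes. Hist1h2al and Hist3h2bb-ps had log2 fold changes of 0.79 ± 0.08 (SE; adjusted p = 9.55e-06, limma with Benjamini-Hochberg adjustment) and 1.20 ± 0.11 (SE; adjusted p = 2.95e-06, limma with Benjamini-Hochberg adjustment). The genotype comparisons with H2AZ siRNA and with NT siRNA share no library, but they share the fit and its estimate of spread. The sex and mesothelial differences between KO and WT cells are present in both, so the calls are not independent.

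Other short genes and structural RNAs were also compared between the genotypes in the RPKM table. The 1499 other tested genes of 300 to 1000 bases, the length of most histone genes, were called less often than all genes in both directions. In KO against WT with NT siRNA 20.5% were called higher, against 23.7% of all genes tested, and 31.9% lower, against 40.4%. Their median log2 fold change was -0.06. The structural RNAs Rn7sk and Rn7s1, which like most histone mRNAs carry no poly(A) tail, were higher in KO. Rn7sk measured 72947, 88284 and 80629 RPKM in KO NT siRNA and 45949, 49597 and 51231 RPKM in WT NT siRNA, and took 2.41 to 2.92% of reads in KO NT siRNA and 1.52 to 1.70% in WT NT siRNA libraries. Rn7s1 measured 251505, 299093 and 290103 RPKM in KO NT siRNA and 195869, 219290.0 and 219123 RPKM in WT NT siRNA. The part of the Rn7sk and Rn7s1 shifts, and of the mesothelial and fibroblast markers given above, in the histone difference was not tested.

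H2AZ siRNA lowered a fraction of the histone genes in WT cells, and most of the genes called were H2A and H3 genes. The summed level was 31089, 32689.8 and 31654 RPKM in WT H2AZ siRNA and 33074, 39474 and 38829.7 RPKM in WT NT siRNA, a ratio of 0.857 without overlap. Of 61 genes 17 (27.9%) were called lower, against 10.4% of all genes tested, and none was called higher, against 4.88%. They were 9 of 17 H2A, 7 of 10 H3 and 1 of 5 H1 genes, while none of 16 H2B and none of 13 H4 genes passed. The class sums fell by similar amounts, with ratios of 0.847 for H1, 0.831 for H2A and 0.826 for H3. The ratios were 0.890 for H2B and 0.885 for H4, where the libraries overlapped. Without overlap 25 of 61 were lower, a larger share than the 24.3% of all genes, and none was higher, against 13.7%. Of the 9 H2A calls, log2 fold changes ran from -0.33 (Hist1h2ab) to -0.28 (Hist1h2ak), and of the 7 H3 calls all but 1, Hist1h3h, Hist1h3i, Hist1h3f, Hist1h3c, Hist1h3b and Hist1h3a, lay between -0.31 and -0.27.

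Hist1h1a had the largest of these changes. It measured 246, 266 and 254 RPKM in WT H2AZ siRNA and 328, 389 and 401 RPKM in WT NT siRNA, a log2 fold change of -0.54 ± 0.08 (SE; adjusted p = 0.00133, limma with Benjamini-Hochberg adjustment). Hist1h3d (H3) measured 646, 629 and 633 RPKM in WT H2AZ siRNA and 709, 871 and 813 RPKM in WT NT siRNA, a log2 fold change of -0.32 ± 0.08 (SE; adjusted p = 0.0191, limma with Benjamini-Hochberg adjustment). Both genes were lower in all WT H2AZ siRNA libraries. Hist1h2ab (H2A) measured 488, 523 and 481 RPKM in WT H2AZ siRNA and 553, 685 and 641 RPKM in WT NT siRNA, a log2 fold change of -0.33 ± 0.09 (SE; adjusted p = 0.0247, limma with Benjamini-Hochberg adjustment), and Hist1h2ad (H2A) had a log2 fold change of -0.32 ± 0.09 (SE; adjusted p = 0.0305, limma with Benjamini-Hochberg adjustment). The lowest NT value of each of these genes was that of replicate 1.

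The 17 lower calls of WT cells rest on the choices made. They were 1, Hist1h1a, under median centring or with no filter, and 36 without WT NT siRNA replicate 1, and they were 1 without WT NT siRNA replicate 2, WT NT siRNA replicate 3, WT H2AZ siRNA replicate 1 or WT H2AZ siRNA replicate 3 and 3 without WT H2AZ siRNA replicate 2.

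In KO cells H2AZ siRNA gave fewer histone calls. The summed level was 47128, 51990.3 and 45758 RPKM in KO H2AZ siRNA and 48168, 54584 and 54195 RPKM in KO NT siRNA, with overlap and a ratio of 0.923. Only Hist1h1a and Hist1h1b of 61 (3.28%) were called lower, against 19.0% of all genes tested, and none was called higher, against 6.56%. Without overlap 4 of 61 were lower, against 27.9% of all genes, and none was higher, against 11%. Hist1h1a measured 418, 473 and 447 RPKM in KO H2AZ siRNA and 619, 709.9 and 647 RPKM in KO NT siRNA, a log2 fold change of -0.56 ± 0.08 (SE; adjusted p = 5.79e-04, limma with Benjamini-Hochberg adjustment) that left no overlap. Hist1h1b, another linker histone gene, measured 355, 427 and 384 RPKM in KO H2AZ siRNA and 444, 518 and 459 RPKM in KO NT siRNA, a log2 fold change of -0.29 ± 0.09 (SE; adjusted p = 0.0463, limma with Benjamini-Hochberg adjustment). The single call of Hist1h1b was lost without KO NT siRNA replicate 2 or 3 or KO H2AZ siRNA replicate 1 or 3, and without KO NT siRNA replicate 1 there were 4 calls.

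The difference between these 2 effects of H2AZ siRNA, in KO minus in WT, passed the limma test with Benjamini-Hochberg adjustment for no histone gene, and for 0.00789% of all genes tested (H2afz itself, higher). At an unadjusted p under 0.05 there were 9 of 61 histone genes (14.8%), all of them H2A genes with a positive difference, against 8.64% of all genes in either direction and 2.75% in the positive one. Limma-voom on the recovered reads also called none. The median difference was 0.27 on the log2 scale over the 17 H2A genes and 0.06, 0.12 and 0.04 over the H2B, H3 and H4 genes, against -0.03 over all genes. For Hist1h1a it was -0.02 ± 0.11 (SE).

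In DMSO the summed histone level was lower in KO than in WT cells. It came to 10423 and 10925 FPKM in KO DMSO and 13313 and 12173 FPKM in WT DMSO, a ratio of 0.838 with no overlap. The class ratios ran from 0.738 for H2A to 0.918 for H1. Of 59 genes 5 (8.47%) were called higher, against 19.6% of all genes tested, and 6 (10.2%) lower, against 22.9%, so both shares were below those of all genes. The part of the mesothelial and fibroblast markers, and of the Xist and Ddx3y differences, in the DMSO and DAC results was not tested. The median log2 fold change was -0.25 over the histone genes and -0.04 over all genes, and 46 of 59 values were negative. Without overlap 39 of 59 were lower, a larger share than the 40.8% of all genes, and 9 of 59 higher, a smaller share than the 34.0%.

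Single genes stood apart in DMSO. Hist1h1a measured 99.1 and 102 FPKM in KO DMSO and 51.3 and 52.5 FPKM in WT DMSO, a log2 fold change of 0.94 ± 0.17 (SE; adjusted p = 0.00192, limma with Benjamini-Hochberg adjustment). Hist1h2bf, an H2B gene at chr13:23573760-23574207, went the other way with 77.8 and 87.3 FPKM in KO DMSO and 157 and 136 FPKM in WT DMSO, a log2 fold change of -0.82 ± 0.09 (SE; adjusted p = 8.96e-05, limma with Benjamini-Hochberg adjustment). Neither gene overlapped between genotypes, and both were called under all 12 alternatives.

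Hist1h3a (H3) measured 389.7 and 371 FPKM in KO DMSO and 305 and 244 FPKM in WT DMSO, and Hist4h4 measured 15.5 and 15.9 FPKM in KO DMSO and 10.8 and 10.5 FPKM in WT DMSO. Both were higher in KO, with log2 fold changes of 0.48 ± 0.11 (SE; adjusted p = 0.00671, limma with Benjamini-Hochberg adjustment) and 0.52 ± 0.18 (SE; adjusted p = 0.0423, limma with Benjamini-Hochberg adjustment). Lower in KO were Hist1h4f (263 FPKM on average in KO DMSO and 391 FPKM in WT DMSO), Hist1h2af (204 FPKM in KO DMSO and 305 FPKM in WT DMSO) and Hist1h2bc (99.3 FPKM in KO DMSO and 146 FPKM in WT DMSO). Their libraries did not overlap, with only 2 per group. The calls of Hist4h4, Hist1h2af, Hist1h2bc and Hist1h4f were each lost on leaving out any one of the 4 libraries, those of Hist4h4 and Hist1h2af also with no filter, and that of Hist1h3a without KO DMSO replicate 1. Of the 3 entries of chromosome 11, Hist3h2ba and Hist3h2bb-ps were higher too but low (Hist3h2a was not tested), at 3.79 and 4.2 FPKM in KO DMSO and 0.531 and 0.724 FPKM in WT DMSO for Hist3h2ba.

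The number and the balance of DMSO calls changed with the fit. With only these 4 libraries in the fit 6 genes were higher and 27 lower, with limma-voom 5 higher and 16 lower, and without KO DMSO replicate 1, KO DMSO replicate 2, WT DMSO replicate 1 or WT DMSO replicate 2 the calls were 3 higher and 1 lower, 4 higher and 2 lower, 4 higher and 1 lower, and 4 higher and 2 lower, so that higher calls then led.

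DAC raised part of the family in KO cells, and 9 of the 10 H3 genes passed. The summed level was 11727, 14791 and 14897 FPKM in KO DAC and 10423 and 10925 FPKM in KO DMSO, a ratio of 1.29, and the H3 sum alone was 4474, 5253 and 5244 FPKM in KO DAC and 3646 and 3704 FPKM in KO DMSO. The lowest KO DAC library stood above both DMSO libraries for H3, H2B and the whole family, while H1, H2A and H4 overlapped. Of 59 genes 22 (37.3%) were called higher, against 23.7% of all genes tested, and 1 (1.69%) lower, against 21.6%. The higher calls were 9 of 10 H3, 8 of 15 H2B, 3 of 12 H4, 2 of 6 H1 and none of 16 H2A genes. Without overlap 31 of 59 were higher, a larger share than the 33.3% of all genes, and 2 of 59 lower, a smaller share than the 31.3%. The classes lay closer without KO DAC replicate 1: the ratio of sums was then 1.26 for H1, 1.33 for H2A, 1.41 for H2B, 1.43 for H3 and 1.40 for H4, no class overlapped, and 29 genes were called higher (10 H3, 10 H2B, 6 H4, 2 H1 and 1 H2A). Without both that library and WT DAC replicate 3, which shares the fit, 49 were called higher, 13 of 16 H2A genes among them. The shares of all genes called in these fits with fewer libraries are not given here. The lower call was Hist3h2ba, with 0.848, 1.56 and 1.06 FPKM in KO DAC and 3.79 and 4.2 FPKM in KO DMSO.

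The largest of these rises was that of Hist2h3c2, an H3 gene of the chromosome 3 cluster, with the limit on its length given above. It measured 644, 859 and 826 FPKM in KO DAC and 444 and 490.0 FPKM in KO DMSO, a log2 fold change of 0.72 ± 0.20 (SE; adjusted p = 0.0154, limma with Benjamini-Hochberg adjustment). Hist2h4, an H4 gene of the same cluster, measured 145, 189 and 189 FPKM in KO DAC and 103 and 110.1 FPKM in KO DMSO, a log2 fold change of 0.69 ± 0.15 (SE; adjusted p = 0.00533, limma with Benjamini-Hochberg adjustment). Replicate 1 was the lowest of the KO DAC libraries for both, yet above DMSO, and the call of Hist2h3c2 was lost without either KO DMSO library. Hist1h2bj (H2B) and Hist1h4m (H4) had log2 fold changes of 0.59 ± 0.20 (SE; adjusted p = 0.0403, limma with Benjamini-Hochberg adjustment) and 0.56 ± 0.17 (SE; adjusted p = 0.0252, limma with Benjamini-Hochberg adjustment). Both calls were lost without KO DAC replicate 2 or 3 or either KO DMSO library, that of Hist1h2bj also with no filter. Hist1h3h, the most abundant H3 gene per length, measured 771, 876 and 871 FPKM in KO DAC and 569.7 and 604 FPKM in KO DMSO, a log2 fold change of 0.51 ± 0.09 (SE; adjusted p = 0.00231, limma with Benjamini-Hochberg adjustment).

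In WT cells few histone genes passed the test with DAC. Their summed level came to 12913, 12859 and 10211 FPKM in WT DAC and 13313 and 12173 FPKM in WT DMSO, with overlap and a ratio of 0.941. Of 59 genes 2 (3.39%) were called higher, against 14.5% of all genes tested, and 1 (1.69%) lower, against 13.8%. Without overlap 7 of 59 were higher, against 26.0% of all genes, and 13 of 59 lower, against 27.7%, so both shares were smaller than those of all genes. Hist1h1a measured 84.3, 78.4 and 63.5 FPKM in WT DAC and 51.3 and 52.5 FPKM in WT DMSO, a log2 fold change of 0.52 ± 0.15 (SE; adjusted p = 0.0332, limma with Benjamini-Hochberg adjustment). Hist1h2bf measured 105, 113 and 104 FPKM in WT DAC and 157 and 136 FPKM in WT DMSO, a log2 fold change of -0.44 ± 0.08 (SE; adjusted p = 0.00365, limma with Benjamini-Hochberg adjustment). Hist1h1a was thus higher and Hist1h2bf lower in all 3 WT DAC libraries. The higher call of Hist1h1a was lost with no filter and without WT DAC replicate 1 or 2 or either WT DMSO library. Hist1h2ba, which codes for a testis form of H2B, measured 9.26, 5.53 and 5.77 FPKM in WT DAC and 3.23 and 3.48 FPKM in WT DMSO, a log2 fold change of 0.82 ± 0.24 (SE; adjusted p = 0.0319, limma with Benjamini-Hochberg adjustment). Its call was lost with no filter and without WT DAC replicate 1 or either WT DMSO library. Of the other testis forms, Hist1h2aa (H2A) reached at most 0.167 FPKM in any library. Hist1h1t, the testis linker histone gene, measured 0.551, 0.729 and 0.899 FPKM in WT DAC and 0.313 and 0.349 FPKM in WT DMSO without passing. In KO cells Hist1h1t measured 0.714, 1.27 and 1.23 FPKM in KO DAC and 0.00 and 0.707 FPKM in KO DMSO and was 1 of the 2 H1 genes called higher, at a level close to the filter.

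Under DAC the H3 genes were higher in KO than in WT cells. The H3 sum was 4474, 5253 and 5244 FPKM in KO DAC and 4039.6, 3902 and 3511 FPKM in WT DAC, a ratio of 1.31 without overlap, whereas the sums of the other classes overlapped. Without KO DAC replicate 1 no class overlapped, and the ratios were 1.24 for H1, 1.15 for H2A, 1.15 for H2B, 1.37 for H3 and 1.19 for H4. No class overlapped without both this library and WT DAC replicate 3 either, with ratios from 1.03 for H2A to 1.32 for H3. Without WT DAC replicate 3 alone, only H3 stood clear. Of 59 genes 14 (23.7%) were called higher, against 11.1% of all genes tested, and none lower, against 11.6%. They were 7 of 10 H3, 4 of 15 H2B, 1 of 6 H1, 1 of 16 H2A and 1 of 12 H4 genes. Without overlap 17 of 59 were higher, a larger share than the 18.6% of all genes, and none was lower, against 18.3%. Hist1h3g (H3) measured 328, 347 and 332 FPKM in KO DAC and 212, 206 and 211 FPKM in WT DAC, a log2 fold change of 0.67 ± 0.06 (SE; adjusted p = 1.12e-04, limma with Benjamini-Hochberg adjustment). Hist1h3a measured 439, 469 and 479 FPKM in KO DAC and 323, 309 and 342 FPKM in WT DAC, a log2 fold change of 0.51 ± 0.09 (SE; adjusted p = 0.00393, limma with Benjamini-Hochberg adjustment). Both H3 genes were tight within each group.

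Hist2h2ac, an H2A gene of the chromosome 3 cluster (chr3:96220413-96220880), had the largest called change under DAC. It measured 14.6, 19.9 and 19.3 FPKM in KO DAC and 10.3, 7.89 and 4.44 FPKM in WT DAC, a log2 fold change of 1.20 ± 0.24 (SE; adjusted p = 0.00766, limma with Benjamini-Hochberg adjustment). Hist4h4 measured 12.3, 15.8 and 16.0 FPKM in KO DAC and 8.97, 8.3 and 5.88 FPKM in WT DAC, a log2 fold change of 0.86 ± 0.14 (SE; adjusted p = 0.00365, limma with Benjamini-Hochberg adjustment), so that this gene was called higher in KO in all 4 genotype comparisons, the DMSO call with the losses given above. Hist1h1a measured 81.1, 113 and 106 FPKM in KO DAC and 84.3, 78.4 and 63.5 FPKM in WT DAC, and did not pass (log2 fold change 0.40 ± 0.14 (SE; adjusted p = 0.0667, limma with Benjamini-Hochberg adjustment)).

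**Figure D3:**
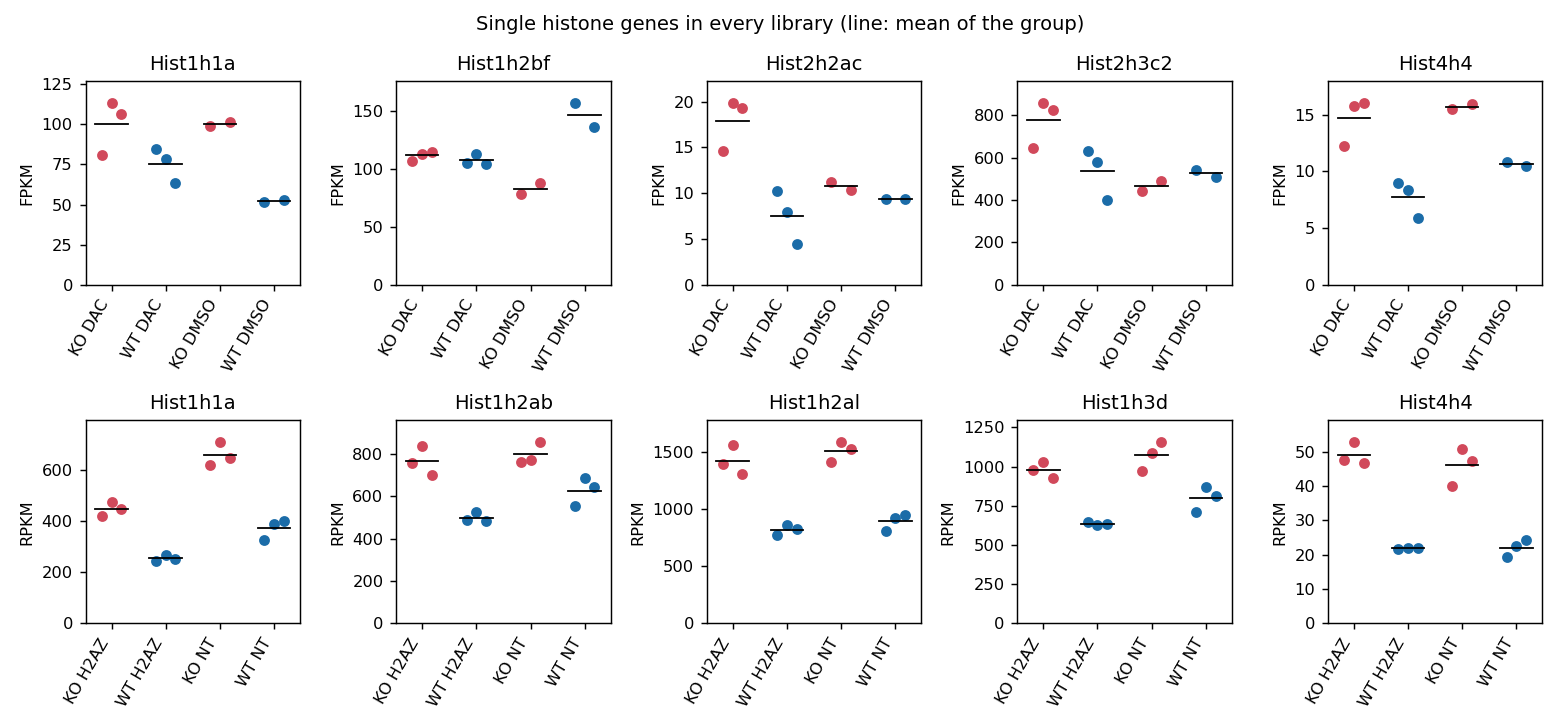
Values of 10 gene and table pairs in every library (points) with group means (lines), FPKM in the upper row and RPKM in the lower. Hist4h4 is higher in KO than in WT in all 4 pairs of groups, and Hist1h2bf is highest in WT DMSO.

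The DAC effect in KO minus that in WT passed for 11 of 59 genes (18.6%), all positive, against 12.4% of all genes tested, and for none (0%) in the negative direction, against 11.7%. The 11 were 7 H3 genes (Hist1h3b, Hist1h3d, Hist1h3e, Hist1h3f, Hist1h3g, Hist1h3h and Hist1h3i), Hist1h4f, Hist2h4, Hist1h1d and Hist1h2bf. The difference was 0.87 ± 0.11 (SE; adjusted p = 6.53e-04, limma with Benjamini-Hochberg adjustment) for Hist1h2bf, which had 107, 113 and 115 FPKM in KO DAC and 77.8 and 87.3 FPKM in KO DMSO, with its WT values given above. It was 0.74 ± 0.17 (SE; adjusted p = 0.0126, limma with Benjamini-Hochberg adjustment) for Hist1h1d, a linker histone gene at 225, 269 and 258 FPKM in KO DAC and 179 and 199.9 FPKM in KO DMSO, and 220.3, 211 and 174 FPKM in WT DAC and 267 and 242 FPKM in WT DMSO. Hist1h2bf was lowest in the KO DMSO libraries, and Hist1h1d was lowest in WT DAC replicate 3, followed by a KO DMSO library. The call of Hist1h1d was lost without KO DMSO replicate 1 or WT DMSO replicate 1. The median difference was 0.51 over the 16 H2A genes, of which none passed with all libraries and 9 without both KO DAC replicate 1 and WT DAC replicate 3, and 0.54 over the 10 H3 genes. The 4 comparisons of this table share libraries in pairs, so their calls are not independent.

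Single libraries moved the whole family in the FPKM table. KO DAC replicate 1 lay below the mean of the other KO DAC libraries for 59 of 59 tested histone genes, by a median of -0.39 on the log2 scale, and WT DAC replicate 3 below the other WT DAC libraries for 54 of 59, by -0.38, while the medians over all genes were -0.0025 and -0.04. H2A and H4 genes were displaced more (medians of -0.42 and -0.48 in KO DAC replicate 1 and of -0.69 and -0.44 in WT DAC replicate 3) than H3 genes (-0.23 and -0.16). Rn7s1 was lowest in the same libraries, with 15525, 22145 and 22179 FPKM in KO DAC and 26209, 25251 and 20708 FPKM in WT DAC. Rn7sk measured 63726, 68703 and 70843.5 FPKM in KO DAC and 71008, 69639 and 90829 FPKM in WT DAC. It was thus lowest in KO DAC replicate 1 but highest in WT DAC replicate 3. All 10 replacement variant genes in KO DAC replicate 1 and 9 of 10 in WT DAC replicate 3 were also below the rest, as were 23 and 27 of 36 S phase genes, by medians of -0.05 and -0.13. The part of these shifts in the histone result was not tested.

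Without both of these libraries, an alternative chosen after the data were seen, the calls of DAC against DMSO in KO were 49 higher and 1 lower. They were 9 higher and 5 lower for DAC against DMSO in WT, 22 higher and 4 lower for KO against WT in DAC, and 35 positive and 1 negative for the difference of effects. The shares of all genes called without these libraries are not given here, so these counts cannot be set against them. Leaving out one library at a time gave 8 to 30 calls for DAC in KO (30 without KO DAC replicate 1, 14 and 13 without replicates 2 and 3, 8 and 12 without KO DMSO replicates 1 and 2), so the direction in KO held and the number did not. For KO against WT in DAC it gave 5 to 23 calls (23 without KO DAC replicate 1, 5 without replicate 2 or 3, 10, 9 and 12 without WT DAC replicates 1, 2 and 3). For the difference of effects it gave 2 to 17 calls: 17, 8 and 6 without KO DAC replicates 1, 2 and 3, 2 and 5 without KO DMSO replicates 1 and 2, 9, 6 and 10 without WT DAC replicates 1, 2 and 3, and 2 and 8 without WT DMSO replicates 1 and 2.

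In the RPKM table the first replicates with NT siRNA were low for the histone genes. WT NT siRNA replicate 1 lay below the other WT NT siRNA libraries for 60 of 61 histone genes, by a median of -0.24, and KO NT siRNA replicate 1 below the other KO NT siRNA libraries for 59 of 61, by -0.17, against 0.07 and 0.08 over all genes. Here the replacement variants were not low with them (2 of 10 below the rest in WT NT siRNA replicate 1 and 4 of 10 in KO NT siRNA replicate 1), nor most S phase genes (13 and 12 of 36), and in WT NT siRNA replicate 1 the H3 genes (-0.23) were displaced about as much as the H2A genes (-0.25). Without both, KO against WT with NT siRNA gave 57 higher and 1 lower, and H2AZ siRNA against NT siRNA gave 47 lower in WT and 25 lower in KO. The shares of all genes called without both are not given here either.

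**Figure D4:**
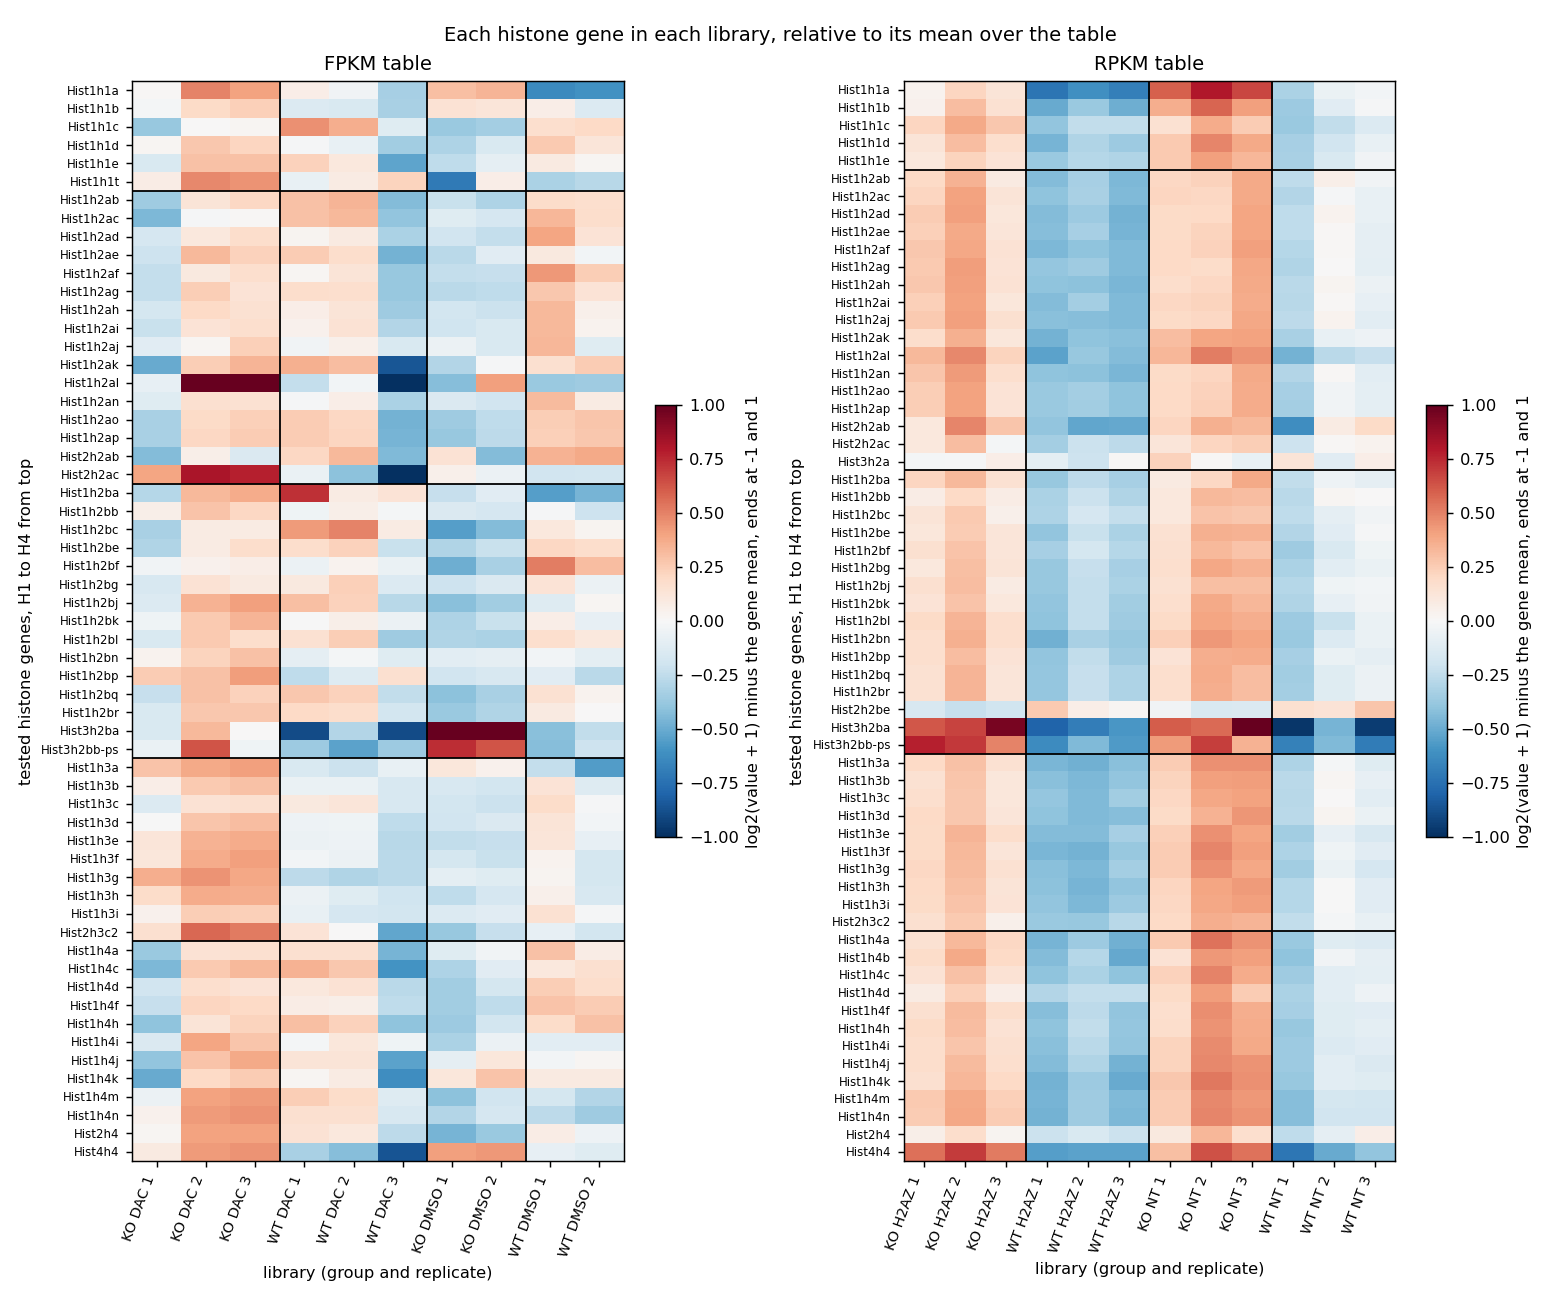
Each tested histone gene (rows, by class) in each library (columns, by group), as log2(value + 1) minus the gene's mean over its table, with colours ending at -1 and 1. The RPKM table shows KO columns above WT columns for nearly every row, and the FPKM table shows KO DAC replicate 1 and WT DAC replicate 3 below their own groups.

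Genes that make and process histone mRNA were called in KO against WT with NT siRNA at shares near those of all genes in the lower direction. Of 28 listed regulators 22 were tested in the RPKM table, and in KO against WT with NT siRNA 3 were called higher, against 23.7% of all genes, and 11 lower, against 40.4% (median log2 fold change -0.16, against -0.10 over all genes). Lower were Casp8ap2 (-1.02), needed for histone expression at the histone locus body, Ccne2 (-0.98), a cyclin that drives S phase entry, and Npat (-0.60), the coactivator of histone transcription. Higher were Sympk (0.52) and Cpsf3 (0.16), both parts of the complex that cleaves histone pre-mRNA, and E2f1 (0.18), an S phase transcription factor. With H2AZ siRNA 2 were higher, against 20.2% of all genes, and 11 lower, against 42.7%, in KO against WT. Slbp, which codes for the stem-loop binding protein and was among the lower calls, averaged 18.8 RPKM in KO NT siRNA and 21.4 RPKM in WT NT siRNA.

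Among the same regulators 23 were tested on FPKM values. Of these 4 were higher and 6 lower in KO against WT in DMSO (19.6% and 22.9% of all genes), and 6 higher and 1 lower in KO against WT in DAC (11.1% and 11.6%). With DAC 5 were higher and 2 lower in WT (14.5% and 13.8% of all genes), and 7 higher and 1 lower in KO (23.7% and 21.6%). The largest rises with DAC in KO were those of Ccne1 (1.62), another cyclin of S phase entry, Cpsf2 (0.88), a partner of the cleavage nuclease, and Ccna2 (0.75), an S phase cyclin. With H2AZ siRNA, 1 regulator was lower in WT (Upf1, -0.19, which takes part in histone mRNA decay), against 10.4% of all genes, and 1 was higher and 2 were lower in KO, against 6.56% and 19.0%.

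Genes of DNA replication were called in both directions. Of 36 S phase genes, 15 were called higher and 11 lower in KO against WT with NT siRNA, against 23.7% and 40.4% of all genes, and 17 higher and 10 lower with H2AZ siRNA, against 20.2% and 42.7%. Cdt1, which licenses origins, and Chaf1b, a subunit of the assembly factor that loads new H3 and H4, were higher (0.79 and 0.63 on the log2 scale with NT siRNA), and Prim1, a primase subunit, and Gins3, a subunit of the replicative helicase complex, were lower (-0.71 and -0.61). H2AZ siRNA lowered 9 of 36 in WT, against 10.4% of all genes, and 11 in KO, against 19.0%, among them Asf1b, a chaperone of new H3 and H4 (-0.57 in WT and -0.67 in KO), and raised 1, Rrm2, in KO. DAC in KO raised 7 and lowered 4, against 23.7% and 21.6% of all genes, with Rrm2, a subunit of ribonucleotide reductase, at 1.49.

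Of 10 replacement variant genes tested, 6 were called higher and 1 lower in KO against WT with NT siRNA, against 23.7% and 40.4% of all genes, and 8 higher and 1 lower with H2AZ siRNA, against 20.2% and 42.7%. The 8 take in H2afz and H2afv, both H2A.Z genes that fell with the siRNA: H2afz averaged 27.9 RPKM in KO H2AZ siRNA and 17.2 RPKM in WT H2AZ siRNA, and H2afv 3.01 RPKM in KO H2AZ siRNA and 1.57 RPKM in WT H2AZ siRNA. The lower one was H1f0, a linker histone of resting cells, at 52.3 ± 4.09 RPKM in KO NT siRNA and 72.7 ± 6.80 RPKM in WT NT siRNA (SD, n = 3 each; log2 fold change -0.47). H2afx, the variant phosphorylated at DNA breaks, was higher (0.49). In the FPKM table none was higher and 3 were lower in KO against WT in DMSO, against 19.6% and 22.9% of all genes, and 3 were higher and 3 lower with DAC in KO, against 23.7% and 21.6%.

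The 2 tables also differed in which histone genes they showed. For the 58 genes that passed in both, the ratio of the mean RPKM to the mean FPKM had a median of 3.36, and it was over 20 for Hist1h2al (57.5), Hist2h2ac (33.9) and Hist1h2ba (23.9). Hist1h4b (chr13:23756937-23757386) lay between 0 and 0.682 FPKM in the 10 libraries of one table and between 334 and 643 RPKM in the 12 of the other. The cause was not tested, and the processing that led to each table is not given in the sources used here beyond the names of tools.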

How the data were processed

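RNA was measured in 22 libraries made with a stranded total RNA kit, per the labels' protocols, so RNA without a poly(A) tail is kept. The authors deposited FPKM values for 10 libraries and RPKM values for 12, and mm10, Bowtie2, STAR and deepTools are named per the submitters' processing notes. The sources used here give no version, counting method, strand setting or annotation. The 31 CUT&Tag samples were not analysed here. Whole read numbers were recovered from value steps for 35023 of 35023 genes above 0, no further than 0.0129 from a whole number.

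Values were tested as log2(value + 1) with limma 3.58.1 (intensity trend) in R 4.3.3, all 4 groups of a table in 1 fit, with Benjamini-Hochberg adjustment over all genes tested and a threshold of 0.05. A fold change on this scale understates the change of low genes. Python 3.11.15, numpy 2.4.6, pandas 2.3.3 and matplotlib 3.10.9 did the rest. The fit was tested on simulated data. Members and gene lists were chosen with earlier results of these data known.

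Named with values in every library were the highest gene of each class and, per comparison, up to 4 higher and 4 lower called genes with the largest change, if their libraries did not overlap and the higher group averaged 5 or more (2 each for a difference of effects). Genes outside this rule (Hist2h2be, Hist3h2ba and Hist1h4b among them) were named after their values were seen. Alternatives were another pseudocount, other filters, scalings and fits, and leaving out libraries. Where the labels do not speak of separate cultures, p-values cover only the spread between libraries.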

Additional observations from a re-analysis of the deposited data

Results flagged for a closer look

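The DAC effect differed between the genotypes for 11 of 59 histone genes (18.6%), by the test of the difference in limma with Benjamini-Hochberg adjustment over 16434 genes. All 11 differences were positive. Among all genes tested 12.4% were called in the positive and 11.7% in the negative direction. The difference was 0.87 on the log2 scale for Hist1h2bf and 0.74 for Hist1h1d. Groups of 2 or 3 libraries are too small for a test of single outlying samples.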

How the results depend on the processing

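KO against WT gave 58 to 61 called histone genes with either siRNA under every alternative run, and the difference of H2AZ siRNA effects gave 0 under each. Elsewhere the counts moved. Shares of all genes under the alternatives are not given here, so a changed count need not be particular to histone genes. For KO against WT in DMSO they were 21 with limma-voom, 33 with only the groups compared and 4 to 6 without 1 library, where higher calls outnumbered lower ones, the reverse of the full set. For KO against WT in DAC they were 8 with only the groups compared, 5 to 23 without 1 library and 26 without both low DAC libraries. For DAC in WT they were 1 with no filter, 10 with limma-voom and 2 to 4 without 1 library, and 14 without both low libraries; lower calls led with no filter, with limma-voom, with the replicate block and without WT DAC replicate 1 or 2 or WT DMSO replicate 2. For DAC in KO they were 8 to 30 without 1 library and 50 without both. For the difference of DAC effects they were 6 with no filter, 18 with limma-voom, 2 to 17 without 1 library and 36 without both. H2AZ siRNA in WT gave 1 call with no filter, median centring or median-ratio scaling, 1 to 36 without 1 library and 47 without both first NT siRNA replicates. In KO it gave 1 call under those settings or with only the groups compared, 1 to 4 without 1 library and 25 without both. The cause was not tested. Same-numbered libraries had correlations of -0.225 to 0.126 (FPKM) and -0.104 to 0.319 (RPKM), so the numbers were not taken to pair samples; with the replicate block the counts were 8 for KO against WT in DAC, 1 for DAC in WT, 15 for DAC in KO, 6 for the difference of DAC effects, and 32 in WT and 7 in KO for H2AZ siRNA. Of 34 single gene results, 19 were called under every setting and 0 reversed; with the block the calls of Hist1h1a and Hist1h2ba (DAC in WT), Hist1h2bj and Hist1h4m (DAC in KO) and Hist4h4 and Hist1h2af (DMSO) were lost. Where an arm was left with 1 library, its spread was taken from the other groups. One read per kb was worth 0.0271 to 0.0364 FPKM and 0.0212 to 0.0313 RPKM, which limits the genes near the filter.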
